A study of Mus musculus with 6 samples.

Results

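Lysosomes break down proteins, sugars and lipids in an acidic compartment that is filled with soluble hydrolases and bounded by a membrane rich in glycosylated proteins and transporters. Autophagy feeds this compartment: the ULK1 kinase complex and a PI3-kinase complex start a membrane that grows around cytoplasm, conjugation enzymes attach ATG8-family proteins to it, cargo receptors bind what is to be engulfed, and the closed autophagosome fuses with the lysosome. Neurons depend on both systems, and the transcription factors TFEB and TFE3 can switch on many of their genes through a short promoter element known as CLEAR. The 55 genes described here were chosen by name from these pathways, 26 of the lysosome and 29 of autophagy, out of 19938 genes with a value in the data. For each gene the transcript cluster (the set of array probes for 1 transcript) with exactly 1 gene symbol and the highest mean was used, and 54 of the 55 genes were measured: every lysosome gene, and every autophagy gene other than the cargo receptor *Optn*, which was not analysed here.

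The values come from N2A cells, a mouse neuroblastoma line grown with 10% serum. The *Paupar* knockdown cultures received 1.5 µg of a plasmid encoding a *Paupar*-directed short hairpin RNA (*Paupar* is a long noncoding RNA of the *Pax6* locus), and the control cultures received a non-targeting plasmid in the same way, by lipid-based transient transfection. RNA was taken 2.5 days later from 3 cultures of each group, called biological replicates in the study's methods, and 200 ng of each was prepared for 1 whole-transcript array. The transfection was transient, so the cultures can hold untransfected cells, and *Paupar* itself has no named transcript cluster here and was not measured.

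All levels below are log2 RMA values (background-corrected, quantile-normalised and summarised over the probes of a transcript cluster), a difference is the mean of the knockdown arrays minus the mean of the control arrays on that scale, and a gene is said to have risen or fallen only at an adjusted p below 0.05 in the limma fit to the 9969 genes that passed a variance filter. Over all named genes the array medians lay between 7.85 and 7.92, any pair of arrays correlated with r between 0.990 and 0.998, and the median difference was 0.03. The 8 of 10 markers of sympathetic neuroblasts that were measured had mean levels of 10.58 to 10.74 on the knockdown arrays and 10.91 to 11.02 on the control arrays. *Dbh* and *Th*, enzymes of catecholamine synthesis, fell (differences -1.09 and -0.68, limma adjusted p = 0.000687 and 0.0105). For markers of other cell types the list means overlapped between the groups, and none of these markers rose or fell. The means were 6.21 to 6.31 on knockdown arrays and 6.12 to 6.22 on control arrays for 10 of 10 macrophage and microglia markers. They were 7.82 to 8.005 on knockdown and 7.77 to 8.17 on control arrays for 8 of 8 fibroblast markers. For 7 of 8 glial markers they were 6.86 to 6.92 on knockdown and 6.70 to 6.93 on control arrays. All knockdown arrays lay above all control arrays for 2 macrophage, 1 fibroblast and 1 glial marker, against 12.8% of all genes, and below them for 0. At an unadjusted limma p below 0.05 in the fit to all genes 2 fibroblast markers were lower and 1 was higher (range of differences -0.75 to 0.21). In bulk RNA, fewer cells of a type and less RNA per cell cannot be told apart.

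Lysosome genes stood lower in *Paupar* knockdown cells by small amounts. Of the 26 genes, 25 had a difference below 0, against 41.6% of all genes, and the median difference was -0.17 (range -0.46 to 0.03). The array means were 10.84 to 11.16 over the lysosome genes and 8.04 to 8.09 over all genes. No share was taken over genes of like level, so the shares of all genes here are not matched for level. With each array centred on its median 22 lay below 0, since *Ctsa*, *Ctsf* and *Ppt1* then passed to the other side. Only *Ctsb* fell, and no lysosome gene rose. This is 1 of the 16 lysosome genes that passed the variance filter, where 5.16% of the genes tested fell and 2.39% rose. At an unadjusted limma p below 0.05 in the fit to all genes there were 11 lysosome genes lower and 0 higher, against 9.73% and 8.67% of all genes. All 3 knockdown arrays lay below all 3 control arrays for 10 of the 26 genes, against 10.8% of all genes, and above them for 0, against 12.8%. Autophagy genes were spread on both sides of 0. Of the 28 measured, 19 lay below 0 and 9 above, where 41.6% of all genes lay below 0. Their median was -0.05 (range -0.21 to 0.32), against 0.03 for all genes, and 17 lay below 0 with the arrays centred. Among the 10 that passed the filter none rose or fell in the limma fit. In the fit to all genes 1 was lower and 3 were higher at an unadjusted p below 0.05. Over all genes these shares were 9.73% and 8.67%. The groups did not overlap for 3 genes that were lower and 5 that were higher, against 10.8% and 12.8% of all genes. The lists were not tested against each other, and genes of a list share the same 6 arrays, so the counts describe these cultures.

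**Figure D1:**
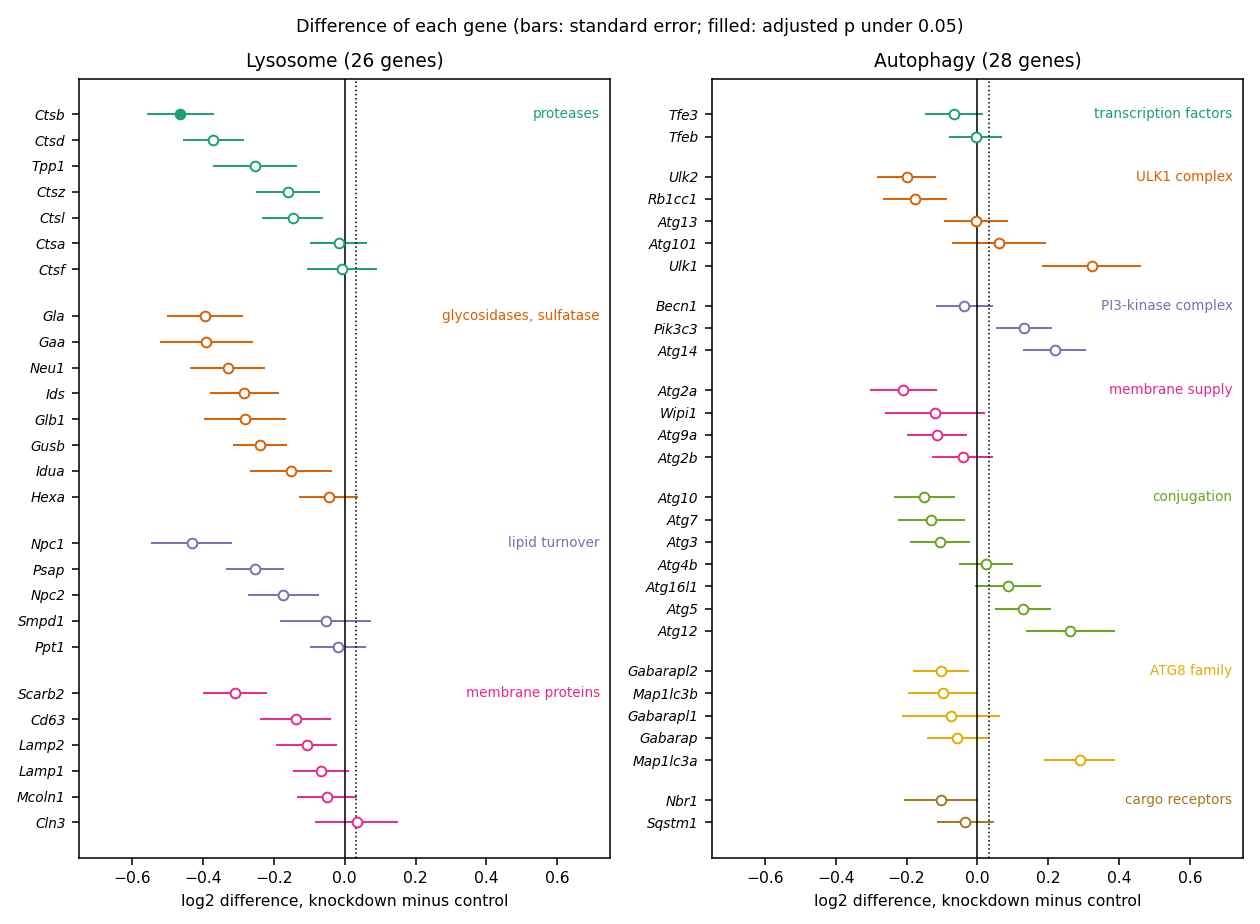
Log2 difference, knockdown minus control, of each of the 26 lysosome genes (left) and 28 autophagy genes (right), grouped by role. Bars are the standard error in the limma fit to all genes, a filled point marks an adjusted p below 0.05, and the dotted line is the median of all genes (0.03). *Ctsb* is the filled point, 25 of 26 lysosome genes lie left of 0, and the autophagy genes lie on both sides.

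Among the proteases, *Ctsb*, a cysteine protease of the cathepsin family, had 11.64, 11.62 and 11.86 on the knockdown arrays and 12.23, 12.09 and 12.19 on the control arrays. Every knockdown array was below every control array, and knockdown replicate 3 lay nearest to the controls. The means were 11.71 ± 0.14 in knockdown cells and 12.17 ± 0.07 in control cells (SD, n = 3 each), a difference of -0.46 ± 0.12 (SE) or 1.38-fold lower, with a limma adjusted p of 0.0343. This call was not kept without knockdown replicate 1 (adjusted p = 0.147), knockdown replicate 2 (0.164), control replicate 1 (0.0762) or control replicate 3 (0.121). It was also not kept when transcript clusters with no single gene name were left in the limma fit (0.187). *Ctsd*, the main aspartic protease of the lysosome, had 12.50, 12.46 and 12.63 in knockdown cells and 12.98, 12.81 and 12.90 in control cells. Its groups did not overlap either, but the difference of -0.37 did not pass (limma adjusted p = 0.0672). The cysteine proteases *Ctsz* and *Ctsl* differed by -0.16 and -0.15, and *Tpp1*, which removes tripeptides and is mutated in a childhood neuronal ceroid lipofuscinosis, by -0.25. The remaining members of the group were close to 0: *Ctsa*, a carboxypeptidase that also protects the products of *Glb1* and *Neu1*, at -0.02, and the cysteine protease *Ctsf* at -0.01. The median over these 7 proteases was -0.16.

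The glycosidases and the sulfatase, which take apart glycogen, glycolipids and glycosaminoglycans, had the lowest median of the role groups, -0.28 over 8 genes, and none of them passed. *Gla*, which encodes alpha-galactosidase A, had 9.26, 9.16 and 9.53 on the knockdown arrays and 9.71, 9.63 and 9.80 on the control arrays. The groups did not overlap, with knockdown replicate 3 again the highest of its group, and the difference was -0.39 (limma adjusted p = 0.0738). *Gusb*, beta-glucuronidase, had 10.32, 10.34 and 10.31 in knockdown cells and 10.54, 10.55 and 10.60 in control cells. Here the replicates lay close together, with SDs of 0.02 in knockdown and 0.03 in control cells, and the gap between the groups was wider than either spread (difference -0.24, limma adjusted p = 0.190). The glycogen-degrading *Gaa* differed by -0.39 (adjusted p = 0.105), the sialidase *Neu1* by -0.33 (0.123) and *Ids*, a sulfatase of heparan and dermatan sulfate, by -0.28 (0.163). For *Glb1*, beta-galactosidase, the difference was -0.28 (0.192), for *Idua*, alpha-iduronidase, -0.15 (0.484), and for *Hexa*, a subunit of beta-hexosaminidase, -0.05. Together with the proteases these are 15 soluble hydrolases, all of them below 0 as deposited and 13 with the arrays centred, with a median of -0.25. The other 11 lysosome genes had a median of -0.11. Of 25 further measured lysosomal hydrolases and cofactors outside the 55 genes, 17 lay below 0 and 8 above, with a median of -0.13.

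Genes of lipid turnover also lay below 0, all 5 of them as deposited, with a median of -0.17. *Npc1*, a membrane protein that exports cholesterol from the lysosome, had 11.19, 11.11 and 11.40 in knockdown cells and 11.87, 11.53 and 11.59 in control cells. Its groups did not overlap, control replicate 1 stood above the other controls, and the difference was -0.43 (limma adjusted p = 0.0603). *Psap*, the precursor of the saposins that present sphingolipids to their hydrolases, had 13.26, 13.26 and 13.31 in knockdown cells and 13.63, 13.48 and 13.49 in control cells. The groups did not overlap, and the difference was -0.25 (limma adjusted p = 0.179). *Npc2*, the soluble partner of *Npc1*, differed by -0.17. Differences for acid sphingomyelinase, *Smpd1*, and for the thioesterase *Ppt1* were -0.05 and -0.02.

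Membrane proteins of the lysosome had smaller differences as a group, with a median of -0.09 over 6 genes. *Scarb2*, whose product LIMP-2 carries beta-glucocerebrosidase to the lysosome, had 10.92, 10.83 and 11.01 in knockdown cells and 11.16, 11.35 and 11.18 in control cells. It was the only gene of this group whose arrays did not overlap, and its difference was -0.31 (limma adjusted p = 0.122). *Cd63*, a tetraspanin of late endosomes and lysosomes, had 11.24, 11.26 and 11.00 in knockdown cells and 11.25, 11.43 and 11.25 in control cells, a difference of -0.14. For this gene knockdown replicate 3 was the lowest array, and replicates 1 and 2 reached the level of the controls. The abundant glycoproteins of the lysosomal membrane, *Lamp1* and *Lamp2*, differed by -0.07 and -0.11, and the calcium-permeable channel *Mcoln1* by -0.05. *Cln3*, which is mutated in juvenile Batten disease, was the 1 lysosome gene above 0, at 0.03.

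**Figure D2:**
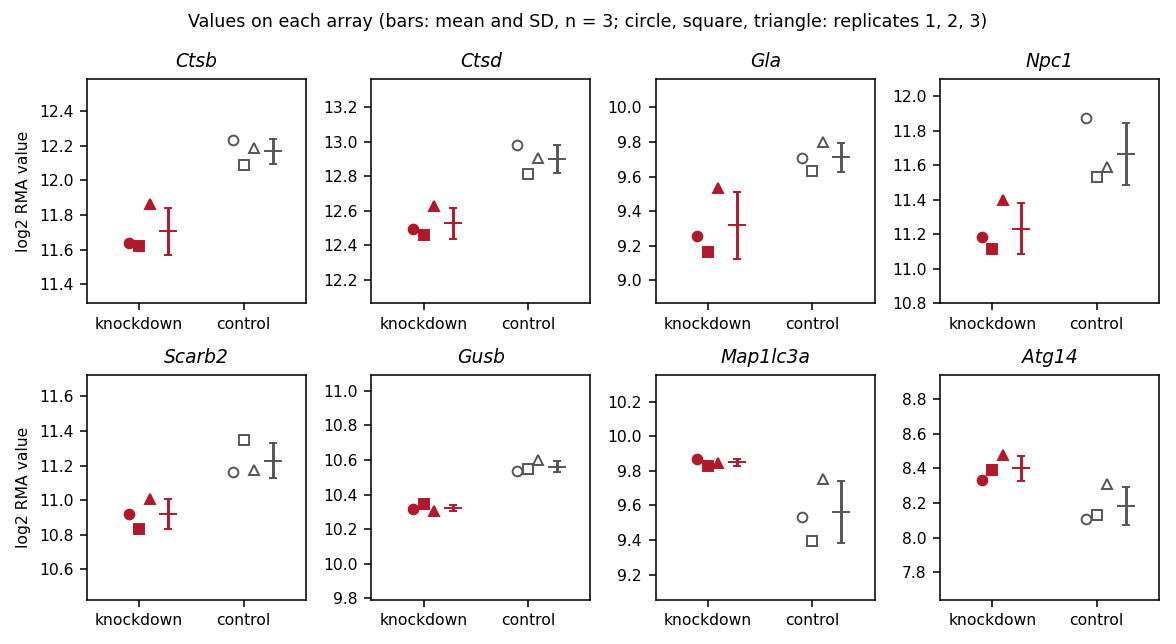
Log2 RMA value (y axis) on each array of *Ctsb*, *Ctsd*, *Gla*, *Npc1*, *Scarb2*, *Gusb*, *Map1lc3a* and *Atg14* in knockdown (red) and control (open grey) cells, with the mean and SD of 3 arrays. Circle, square and triangle are replicates 1, 2 and 3. The groups do not overlap in any panel: the first 6 genes are lower in knockdown cells, and *Map1lc3a* and *Atg14* are higher.

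The 2 transcription factors among the 55 genes, *Tfeb* and *Tfe3*, had nearly equal levels in both groups. *Tfeb* had 9.21, 9.22 and 9.24 in knockdown cells and 9.24, 9.25 and 9.19 in control cells (difference -0.01 ± 0.08, SE in the limma fit to all genes). *Tfe3* had 10.13, 10.22 and 10.24 in knockdown cells and 10.35, 10.19 and 10.25 in control cells (difference -0.07 ± 0.08). The groups overlapped for both, and neither gene passed the variance filter. These are RNA levels, and the activity of both proteins is set largely by whether they are in the nucleus. *Mitf*, a gene of the same family outside the 55, fell and is described with the other pathway genes.

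Within the ULK1 kinase complex the 2 kinase genes lay on opposite sides of 0. *Ulk1*, which encodes the kinase that starts autophagy, had 9.36, 9.31 and 9.75 in knockdown cells and 9.27, 8.92 and 9.27 in control cells. The lowest knockdown array lay just above the highest control array, knockdown replicate 3 and control replicate 2 stood apart from their groups, and the difference was 0.32 (unadjusted p = 0.0444, adjusted p = 0.255 in the limma fit to all genes). *Ulk2*, its paralogue, had 8.51, 8.58 and 8.70 in knockdown cells and 8.78, 8.78 and 8.83 in control cells. Its groups did not overlap, and the difference was -0.20 (unadjusted p = 0.0370, adjusted p = 0.233 in the same fit). *Ulk2* passed the variance filter, and the filtered limma fit gave an unadjusted p of 0.104 and an adjusted p of 0.274. The scaffold *Rb1cc1*, also called FIP200, differed by -0.18 with no overlap between the groups. The adaptor *Atg13* differed by -0.003 and its partner *Atg101* by 0.06. The median over these 5 genes was -0.003.

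The PI3-kinase complex, which marks the forming membrane with a phosphoinositide, had a median of 0.13 over 3 genes. *Atg14*, the subunit that directs the complex to autophagy, had 8.33, 8.39 and 8.48 in knockdown cells and 8.11, 8.13 and 8.31 in control cells. Each knockdown array was above each control array, though knockdown replicate 1 and control replicate 3 nearly met. The difference was 0.22 (unadjusted p = 0.0359, adjusted p = 0.230 in the limma fit to all genes). *Atg14* passed the variance filter, and the filtered limma fit gave an unadjusted p of 0.0871 and an adjusted p of 0.2501. The catalytic subunit *Pik3c3* had 8.87, 8.91 and 8.98 in knockdown cells and 8.84, 8.74 and 8.78 in control cells, again without overlap (difference 0.13). *Becn1*, the regulatory subunit also called Beclin, differed by -0.04.

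All 4 genes that bring membrane to the growing autophagosome lay below 0, with a median of -0.12. *Atg2a*, a lipid transfer protein, had 8.39, 8.41 and 8.62 in knockdown cells and 8.80, 8.62 and 8.64 in control cells, and knockdown replicate 3 lay at the level of control replicates 2 and 3 (difference -0.21, limma adjusted p = 0.278). *Atg9a*, the membrane protein of the vesicles that seed the structure, had 9.86, 9.85 and 9.89 in knockdown cells and 10.08, 9.88 and 9.98 in control cells, with knockdown replicate 3 just above control replicate 2 (difference -0.11). The *Atg2a* paralogue *Atg2b* differed by -0.04 and the phosphoinositide-binding *Wipi1* by -0.12. *Atg2b* had a second cluster, at -0.01.

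Genes of the conjugation machinery, which joins ATG12 to ATG5 and ATG8 proteins to lipid, were divided, with 3 below and 4 above 0 and a median of 0.02. The ubiquitin-like *Atg12* had 9.93, 9.96 and 10.31 in knockdown cells and 9.76, 9.65 and 9.99 in control cells. Control replicate 3 lay within the knockdown values, and the difference was 0.26 (limma adjusted p = 0.239). *Atg10*, the E2-like enzyme of ATG12, had 10.61, 10.48 and 10.70 in knockdown cells and 10.79, 10.74 and 10.71 in control cells. Knockdown replicate 3 and control replicate 3 nearly met, and the difference was -0.15. The ATG12 acceptor *Atg5* differed by 0.13, without overlap, and its binding partner *Atg16l1* by 0.09. The E1-like *Atg7* differed by -0.13, *Atg3*, the E2-like enzyme of the ATG8 proteins, by -0.11, and the protease *Atg4b*, which trims them, by 0.02.

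In the ATG8 family *Map1lc3a*, an LC3 gene, was the 1 gene above 0. It had 9.87, 9.83 and 9.85 in knockdown cells and 9.53, 9.40 and 9.75 in control cells. The knockdown arrays lay within an SD of 0.02 and above all controls, whose SD was 0.18. The difference was 0.29, with an unadjusted p of 0.0175 and an adjusted p of 0.160 in the limma fit to all genes. *Map1lc3a* passed the variance filter, and in the filtered limma fit the unadjusted p was 0.0355 and the adjusted p 0.160. *Gabarapl2* had 12.41, 12.39 and 12.46 in knockdown cells and 12.45, 12.58 and 12.53 in control cells, with overlap, a difference of -0.10, and its second cluster gave -0.11. *Map1lc3b*, the LC3 gene whose product is the common marker of autophagosomes, differed by -0.10 and by -0.08 in its second cluster, *Gabarap* by -0.06 and *Gabarapl1* by -0.07. Members of this family have close paralogues, and probes shared between copies cannot be told apart here. Of the cargo receptors, *Sqstm1*, which encodes p62, had 13.06, 13.09 and 13.09 in knockdown cells and 13.08, 13.05 and 13.21 in control cells (difference -0.03). *Nbr1* had 11.00, 11.01 and 11.26 in knockdown cells and 11.34, 11.09 and 11.15 in control cells (difference -0.10). Both receptors overlapped between the groups.

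**Figure D3:**
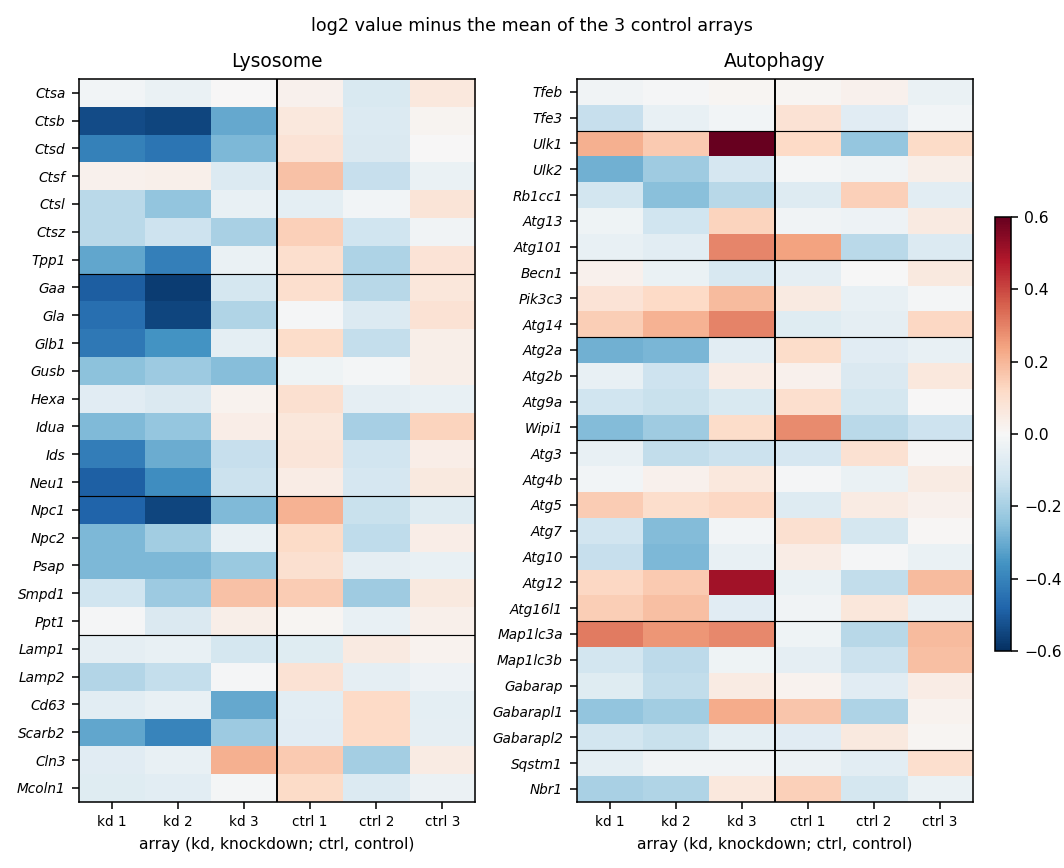
Log2 values relative to the control mean of the same gene, by array, for each lysosome gene (left) and autophagy gene (right). Columns are the 3 knockdown and then the 3 control arrays, lines separate the roles, and blue is below and red above the control mean. Knockdown replicates 1 and 2 are the darker blue columns of the lysosome panel, and knockdown replicate 3 is paler.

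The arrays of a group did not contribute equally. Averaged over the 26 lysosome genes and set against the control mean, knockdown replicates 1, 2 and 3 stood at -0.24, -0.25 and -0.10, and control replicates 1, 2 and 3 at 0.07, -0.09 and 0.02. The knockdown arrays were all below the control arrays, but knockdown replicate 3 and control replicate 2 were nearly equal. Over the 15 soluble hydrolases the same means were -0.30, -0.30 and -0.12 on the knockdown arrays and 0.07, -0.11 and 0.04 on the control arrays. For autophagy the groups overlapped, with -0.04, -0.06 and 0.08 on the knockdown arrays and 0.03, -0.06 and 0.03 on the control arrays. Gene by gene, 19, 20 and 12 of the 26 lysosome genes were below all 3 controls on knockdown replicates 1, 2 and 3, against 24.8, 25.5 and 24.3% of all genes. For the 28 autophagy genes the counts were 12, 15 and 6 (42.9, 53.6 and 21.4%). Knockdown replicate 3 was the highest array of its group for 21 of the 26 lysosome and 22 of the 28 autophagy genes. Over all 19938 genes it was the highest for 6876. Control replicate 2 was the lowest of its group for 21 lysosome and 19 autophagy genes, and for 8635 of all genes. Without knockdown replicate 3 the members that fell were *Ctsb*, *Ctsd*, *Gaa*, *Gla*, *Neu1* and *Npc1*. In that fit 905 of the 9969 genes tested fell, against 514 in the main fit. Without control replicate 2 the members that fell were *Ctsb* and *Npc1*, and 518 genes fell in all. Without knockdown replicate 1 or 2 or control replicate 1 or 3 no member passed, and 161, 113, 194 and 87 genes fell in all. Over the 8 sympathetic markers, of which *Dbh* and *Th* alone passed, the means were -0.38, -0.38 and -0.22 on knockdown replicates 1, 2 and 3 and -0.05, -0.01 and 0.06 on the control arrays. The medians were -0.22, -0.22 and -0.07 on the knockdown arrays and -0.05, 0.003 and 0.07 on the control arrays, and the part of these markers in the result was not tested.

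**Figure D4:**
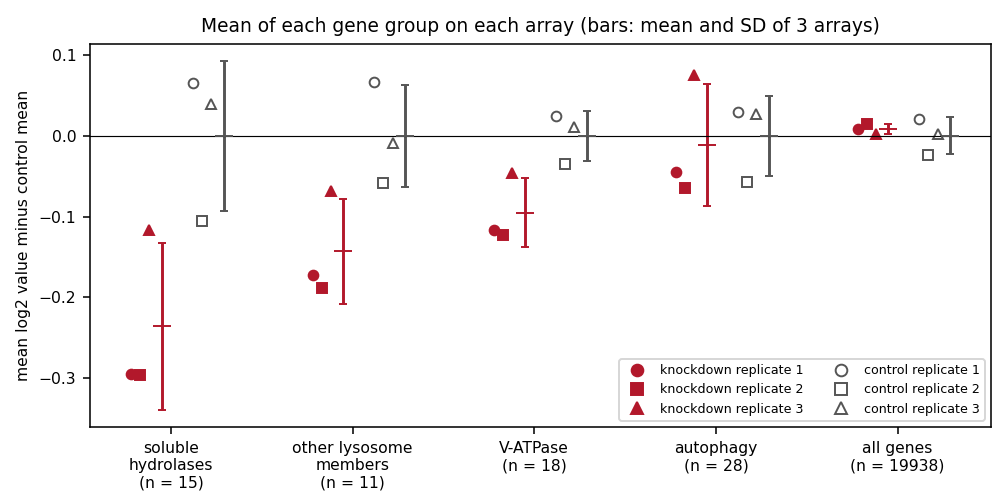
Array averages of log2 values over a gene group, relative to the control mean (y axis), shown for the soluble hydrolases, the other lysosome genes, the V-ATPase genes, the autophagy genes and all genes. Red is knockdown, open grey is control, markers are replicates, and bars are the mean and SD of 3 arrays. The soluble hydrolases stand at -0.30, -0.30 and -0.12 on the knockdown arrays, while the mean of all genes stands at 0.01, 0.01 and 0.00 there.

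Promoter sequence was examined because TFEB and TFE3 bind E-box elements near the start of lysosome genes. The RefSeq promoter windows of the GRCm38.p6 assembly, which run from 250 bases before to 50 bases after a start site, were found for 47 of the 55 genes. They were searched for the 8 letters TCACGTGA, which read the same on both strands and contain the E-box core CACGTG, so that each match is also a match to the core. TCACGTGA was present for 5 of 24 lysosome genes (20.8%: *Cln3*, *Ctsa*, *Ctsd*, *Gla* and *Mcoln1*) and for 1 of 23 autophagy genes (4.35%: *Atg3*), against 1.12% of all 27025 genes with a window and 1.52% of the 15614 that were measured here. The core was present for 10 lysosome genes (41.7%) and 4 autophagy genes (17.4%), against 8.09% of all genes with a window. The windows of *Ctsd* and *Gla* are shown around the match as 2 genes with differences of -0.37 and -0.39. Those of *Mcoln1* and *Atg3* were chosen after their values were seen, as genes with the same match and differences of -0.05 and -0.11. Each is written 5′ to 3′ on the strand of the gene with TCACGTGA in capitals, and positions count from the start site as +1.
Ctsd: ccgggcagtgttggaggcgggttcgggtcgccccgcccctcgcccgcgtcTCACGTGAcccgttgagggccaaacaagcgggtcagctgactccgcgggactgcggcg
Gla: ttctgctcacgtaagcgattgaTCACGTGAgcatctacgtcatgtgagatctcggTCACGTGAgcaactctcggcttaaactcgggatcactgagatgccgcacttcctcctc
Mcoln1: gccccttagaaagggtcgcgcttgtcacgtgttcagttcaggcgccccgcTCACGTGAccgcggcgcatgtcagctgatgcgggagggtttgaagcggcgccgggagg
Atg3: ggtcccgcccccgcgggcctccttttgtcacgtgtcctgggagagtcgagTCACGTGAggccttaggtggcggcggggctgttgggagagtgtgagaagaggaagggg
The *Ctsd* stretch is chr7:142387869-142387976 on the minus strand, with the match starting at -99. For *Gla*, at chrX:134601143-134601255 on the minus strand, there are 2 matches, starting at -228 and -195. The *Mcoln1* stretch is chr8:3500423-3500530 on the plus strand with the match at -46, and that of *Atg3* is chr16:45158707-45158814 on the plus strand with the match at -72.

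Genes with the match did not share 1 level of response. The 5 lysosome genes with TCACGTGA had a median difference of -0.05 (range -0.39 to 0.03), and the 19 with a window and no match had a median of -0.16. No window was found for *Ctsb* (difference -0.46) or *Npc1* (-0.43), so neither was searched and neither is among these 19. *Ctsd* and *Gla* had non-overlapping groups, as given above. *Mcoln1* had 12.50, 12.51 and 12.56 in knockdown cells and 12.69, 12.49 and 12.54 in control cells, and *Atg3* had 9.89, 9.79 and 9.81 in knockdown cells and 9.83, 10.03 and 9.94 in control cells, both with overlap. In *Cln3* and *Ctsa* the match lies by an alternative start site and not by the first start of the gene. A match is a stretch of letters and was not tested for binding.

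Beyond the 55 genes, 173 others of the same pathways were read from the same fit, of which 163 were measured and 82 passed the variance filter. Of these 82 genes 7 fell and 0 rose, where 5.16% of the genes tested fell and 2.39% rose, and none of the 7 calls was kept with unnamed clusters left in the fit. The largest difference among these 7 was that of *Rragd*, which encodes a Rag GTPase that recruits mTORC1 to the lysosome. It had 9.46, 9.60 and 9.70 in knockdown cells and 10.26, 10.57 and 10.38 in control cells, a 1.76-fold lower level (difference -0.82 ± 0.13 SE, limma adjusted p = 0.00290), and the call held with each array left out in turn but not with unnamed clusters in the fit. *Mitf*, a transcription factor of the same family as TFEB, had 8.32, 8.19 and 8.42 in knockdown cells and 8.83, 8.95 and 8.96 in control cells (difference -0.60, limma adjusted p = 0.0105), and was not called without knockdown replicate 2 or control replicate 3, nor with its clusters averaged. These were the 2 that fell of 21 genes of mTORC1 and nutrient sensing that passed the filter (33 measured). Of the 33 genes, 14 lay below 0 and 19 above, with a median of 0.05. At an unadjusted limma p below 0.05 in the fit to all genes 6 were lower and 6 higher. Of 18 further hydrolases and their cofactors that passed it (25 measured) 2 fell: *Naglu*, a glucosaminidase of heparan sulfate (-0.60, adjusted p = 0.0225), and *Naaa*, an amidase of acylethanolamides (-0.41, adjusted p = 0.0490). Of 12 further membrane proteins (22 measured) 2 fell: *Lmbrd1*, which exports cobalamin (-0.46, adjusted p = 0.0296), and the lipid transporter *Abca2* (-0.46, adjusted p = 0.0475). Of 11 further autophagy genes (28 measured) 1 fell, the mitophagy receptor *Fundc1* (-0.52, adjusted p = 0.0426). Each of these last 5 calls was lost without knockdown replicate 1, knockdown replicate 2, control replicate 1 or control replicate 3, and that of *Naaa* also without control replicate 2. The calls of *Abca2* and *Naaa* were also lost with the arrays centred and with the replicate number as a block. *Abca2* and *Fundc1* were not called without the variance filter, nor *Fundc1* with dim genes removed instead, nor *Naaa* with a filter by sample variance.

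Of 18 measured subunits and accessory proteins of the V-ATPase, the proton pump that acidifies the lysosome, 8 passed the variance filter and none of these rose or fell in the limma fit. The nearest was the accessory protein *Atp6ap1*, singled out after its values were seen, with a difference of -0.38 and an adjusted p of 0.0603, which was 0.0462 in the limma fit to all genes. At an unadjusted p below 0.05 in that fit 3 of the 18 were lower and 0 higher, against 9.73% and 8.67% of all genes, and the median difference was -0.10. No gene rose or fell among 19 measured genes of hydrolase sorting and maturation, 6 of which passed the filter (median -0.004, with 3 lower and 1 higher at an unadjusted p below 0.05), or among 18 of the HOPS complex and late endosome fusion, again with 6 that passed (median -0.04, with 2 lower and 0 higher).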

How the data were processed

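The deposited values are log2 expression values of 6 Affymetrix Mouse Gene 1.0 ST arrays, which the authors made by RMA background correction, quantile normalisation and summarisation, with the limma, oligo and genefilter packages (versions not given in the sources used here). RMA draws arrays to 1 distribution, so a shift of all genes would not be seen, and it compresses changes of dim probes. The table held 35556 transcript clusters, of which the platform annotation gave 21789 exactly 1 symbol, 1621 several and 12146 none. Clusters with 1 symbol gave 19938 genes (1 cluster per gene, that with the highest mean). The build behind the clusters is not given in the sources used here.

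Knockdown was compared with control using limma 3.58.1 (lmFit and eBayes) in R 4.3.3, with no covariates and Benjamini-Hochberg adjustment. The variance cut-off of the published analysis was read as removing the lower 50% of genes by interquartile range, which left 9969. Where a gene did not pass the variance filter, its p and SE come from the fit to all 19938. For some genes that passed the filter, p-values of the fit to all genes are also given and named as such. The filtered fit was tested for its calls on simulated data with independent noise per gene. The fit to all genes was tested there only for its differences, not for its p-values. The p-values weigh each difference against the spread between these cultures, which limma moderates across genes, and 3 arrays per group limit the precision. Every member is named with its difference. Array values are given for members that passed and for the 2 of each role group with the largest absolute moderated t, and from each other pathway list at most 4 changed genes are named. The members and lists were chosen with earlier results of these data known. Alternatives covered filters, cluster choice, normalisation, moderation, array weights, a replicate block and each array left out.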

Additional observations from a re-analysis of the deposited data

How the results depend on the processing

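With single arrays left out the lysosome median ranged from -0.25 to -0.17 and the autophagy median from -0.09 to -0.02. The autophagy median of -0.05 was -0.09 without knockdown replicate 3 and with array weights, -0.02 without knockdown replicate 2 or control replicate 3, and -0.03 without control replicate 1 and with centred arrays. Both medians stayed below 0 in all 16 alternatives. With each array left out in turn, the limma fit called 112 to 1239 genes in all (main value 752), 0 to 6 lysosome genes (1), 0 to 0 autophagy genes (0) and 1 to 21 other pathway genes (7). Keeping clusters with several or no symbols left 0 calls in every list, with 3015 of 17778 clusters at an unadjusted p below 0.05. Weighting the arrays called 5561 genes (2665 lower, 2896 higher, a 47.9% share of lower calls against 68.4%), 14 lysosome genes, 2 autophagy genes (*Atg2a* and *Ulk2*, lower) and 56 others. Lysosome calls numbered 2 with a filter by sample variance, 2 with dim genes removed and 4 with an intensity trend and robust prior. Calls among other pathway genes numbered 11, 12 and 14 in these settings. Calls over all genes numbered 995 of 9969, 869 of 13956 and 1008 of 9969 tested, against 752 of 9969 in the main fit. The cause of these shifts was not tested. Replicate numbers did not pair the cultures (correlations of deviations -0.29, 0.06 and 0.08), and with the replicate block 680 genes, 1 lysosome, 0 autophagy and 5 other pathway genes passed, without *Abca2* and *Naaa*. No called gene changed direction, and 40 of the 54 measured genes kept their sign in all 16 alternatives, the other 14 having differences of at most 0.12 in size.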

Other observations

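Outside the 55 genes, TCACGTGA was found in the promoter windows of 4 of 16 genes of hydrolase sorting and maturation (25% of those with a window: *Gnptg*, *Igf2r*, *Sumf1* and *Vps26a*), 3 of 14 subunits of the V-ATPase (21.4%: *Atp6v0d1*, *Atp6v0e* and *Atp6v1a*), 3 of 20 further lysosomal membrane proteins (15%: *Clcn6*, *Clcn7* and *Slc36a1*) and 3 of 16 genes of the HOPS complex and late endosome fusion (18.8%: *Vac14*, *Vps16* and *Vps33a*). It was found in 1 of 26 further autophagy genes (3.85%: *Nrbf2*). It was found in 0 of 21 further hydrolases and 0 of 29 genes of mTORC1 and nutrient sensing, the lists that hold *Naglu*, *Naaa*, *Rragd* and *Mitf*. Windows were found for 21 of 30 and 29 of 33 genes of these lists, and whether each named gene had one is not given here. The core CACGTG was found in 4 of the 21 (19%) and 7 of the 29 (24.1%), against 8.09% of all genes with a window. These are counts of a letter string, given as a description.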
